A study of Mus musculus with 36 samples.

Results

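Nanoceria (cerium oxide nanoparticles) were given to C2C12 myoblasts in space with gravity, and this comparison was taken as the 3 polyadenylated RNA libraries of the class labelled D, with nanoceria, against the 3 of the class labelled C, without it. It uses 6 of the 18 libraries with gene counts. All differences are given as with minus without nanoceria. C2C12 is an established mouse line of muscle precursor cells that divide as myoblasts and can fuse into myotubes. Both classes were seeded at 1500 cells/cm2 in sealed experiment units, kept in the same type of incubator at 37 °C aboard the space station and preserved with RNAlater, with the last fluid activations at day 9 after launch. They differ by the nanoparticles, loaded at 100 µg/ml in the medium reservoir of the treated units. The labels state 3 units for each class, and call the regime "with gravity" without giving the acceleration. The units are taken as separate cultures, and the labels name no batch that sets libraries of a class apart. The comparison asks whether nanoceria changed the transcriptome of myoblasts in flight when gravity was kept, next to the same question in space without gravity and on land.

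Cerium oxide cycles between oxidation states at its surface and can take up superoxide and peroxide, so it is studied as an antioxidant in muscle. Particles of this kind enter cells by endocytosis and collect in lysosomes. Mitochondria are a main source of superoxide, and their own small genome encodes core subunits of the respiratory chain, which work together with many subunits encoded in the nucleus. The NRF2 pathway, with targets such as Hmox1 and Nqo1, is the usual transcriptional readout of oxidative stress.

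The libraries without nanoceria held 11361755, 11378178 and 4974222 counts, and those with it 10418096, 7940811 and 23858. The last of these, replicate 3 with nanoceria, held 4880 genes with a count, where the other 5 had 14753 to 17509, and 10 counts or more in 341 genes. There 3 counts correspond to 35.5 CPM (counts scaled to library size, with TMM normalization), against 0.192 to 0.491 CPM in the other 5, and its TMM factor was 3.54 against 0.796 to 1.38. Below, CPM values are given for the 5 larger libraries, and the raw count is given for the smallest. Differences come from the fit with all libraries, and where a pair is written as "a, or b" the second value is without the smallest library. Across the 764 genes with a mean of at least 100 CPM, the correlation of log2 CPM was 0.95 between replicate 1 with nanoceria and replicate 2 without it, 0.932 between replicates 1 and 2 without it, 0.867 between replicates 1 and 2 with it, and 0.595 to 0.7 between the smallest library and the rest. These correlations are across genes, which are not independent. By that measure, replicate 1 with nanoceria was closer to replicates 1 and 2 without it than to replicate 2 of its own class. Replicate 3 without nanoceria stood apart too, at 0.861 and 0.808 with replicates 1 and 2 of its own class. Of the 7 myoblast markers, Des (an intermediate filament protein of muscle), Myf5, Chrna1 and Itga7 were counted in all 5 larger libraries, with summed marker levels of 133 to 249.8 CPM without and 192 to 234 CPM with nanoceria. Myod1, a defining myoblast factor, had 6, 0 and 0 counts without and 2, 1 and 1 counts with nanoceria, and Pax7 had 2 or 3 counts in each larger library, so these defining markers were near 0. Markers of differentiated myotubes summed to 0.818 to 3.07 CPM without and 5.97 to 11.7 CPM with nanoceria, and Myog was at 0 in all 6 libraries. Most of each sum was Acta1, skeletal actin, and 1 of the 7 markers was tested. Markers of other cell types were low. Leukocyte markers summed to 4.75 to 32.5 CPM, nearly all of it Cd68. Fibroblast markers summed to at most 3.65 CPM, adipocyte markers to at most 3.64 CPM and epithelial markers to at most 0.192 CPM. Endothelial markers stood at 0 to 1.54 CPM except in replicate 1 with nanoceria, where 267 counts of Tek brought them to 21.1 CPM.

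No gene passed the adjusted threshold of 0.05. With edgeR's quasi-likelihood test over all 18 libraries, 0 of 11558 genes (0%) were called, and the smallest Benjamini-Hochberg adjusted p was 0.982. At an unadjusted p under 0.05 there were 516 genes, 261 higher (2.26% of all tested) and 255 lower (2.21%). Without the smallest library 0 of 12375 genes were called, and 331 (2.67%) were higher and 249 (2.01%) lower at that unadjusted level. The median log2 difference of all genes was −0.10 with all libraries and 0.02 without the smallest, and the median standard error of a gene was 0.77 and 0.81, larger than the median size of the differences, 0.52 and 0.53. The common biological coefficient of variation was 0.659. Against the 3 libraries without nanoceria, both larger libraries with it lay above all of them in 1125 genes (9.73% of those tested) and below all of them in 1231 (10.7%). All 3 libraries with nanoceria lay above in 148 genes (1.28%) and below in 979 (8.47%). The smallest library had a count in only 4880 genes, and its part in this split was not tested.

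Other tests called some genes, and many of these calls were of genes highest in the smallest library. DESeq2 called 28 genes, 25 higher and 3 lower. Of the 28, 24 had counts in the smallest library and 20 were at their highest CPM there, such as Nova1, an RNA-binding protein of neurons, with 0, 1 and 1 counts without nanoceria and 1, 0 and 26 with it. A single count there is 11.8 CPM, so a low gene with 1 count can be highest in that library. The share of all genes highest there was not computed. The 3 lower ones were Clock (log2 difference −2.58 ± 0.66, SE, adjusted p = 0.049 by DESeq2), Fbf1 (−4.19 ± 1.10, adjusted p = 0.0491) and Zfp930 (−3.52 ± 0.89, adjusted p = 0.0479). Without the smallest library DESeq2 called 0 genes, and these 3 had adjusted p-values of 0.169, 0.169 and 0.106 at similar differences (−2.63, −4.37 and −3.69). When edgeR was fitted to every gene with a count, 253 of 25194 genes passed, 190 higher and 63 lower. Of these, 85 were among the genes tested above, and 144 were at their highest in the smallest library. Without that library 95 of 24995 passed, 46 higher and 49 lower, 90 of them shared with the 253. When only these 6 libraries were fitted, edgeR called 1 gene, Scpep1os, with 0, 0 and 0 counts without and 26, 11 and 1 with nanoceria (log2 difference 7.33, adjusted p = 0.0434).

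Transcripts of the mitochondrial genome were lower with nanoceria, and their list had the lowest median of the 27 lists examined. It holds the 13 protein-coding genes, of which 11 were tested. All 11 had negative differences, between −2.38 and −1.01, with a median of −1.84, or −1.76 without the smallest library. The median of all genes was −0.10. At an unadjusted p under 0.05, 8 of 11 were lower, where 2.21% of all genes were, and 7 without the smallest library, where 2.01% were. Both larger libraries with nanoceria lay below all 3 without it for 9 of 11, against 10.7% of all genes. None of the 11 passed the adjusted threshold, and genes of 1 genome transcribed together are not independent. The median of this list stayed between −2.11 and −1.52 under all 17 alternatives.

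**Figure D1:**
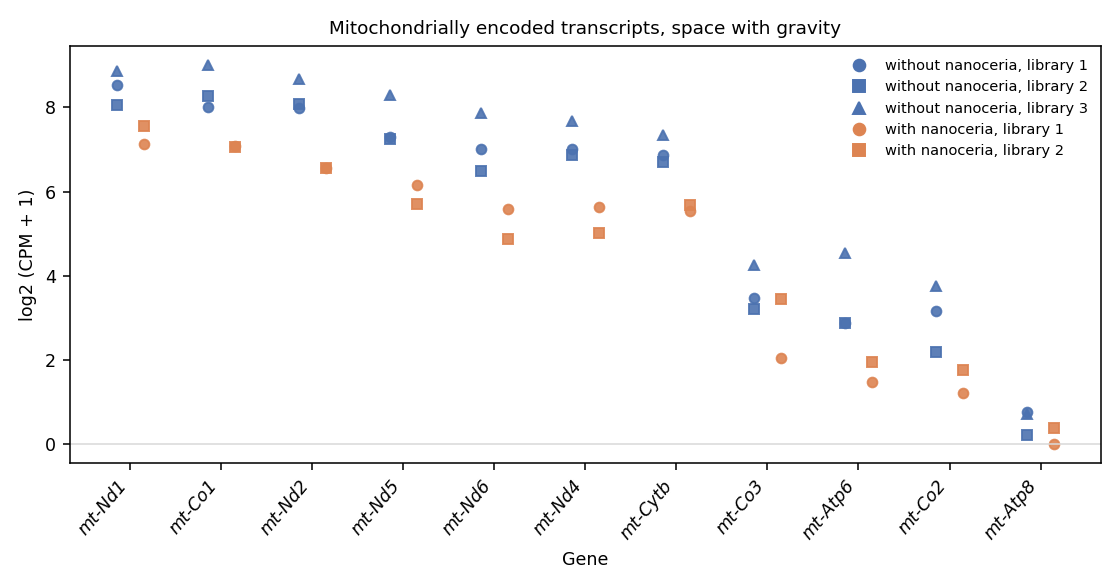
Levels of the 11 tested mitochondrially encoded transcripts as log2 (CPM + 1), 1 point per library for the 3 libraries without nanoceria (blue) and the 2 larger libraries with it (orange), with genes ordered by their mean level without nanoceria. The orange points lie under all blue points for 9 of the 11 genes, all but mt-Co3 and mt-Atp8, and replicate 3 without nanoceria is the highest point for 10 of the 11.

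Complex I subunits made up most of these counts. mt-Nd2 (mitochondrial genome, 3914 to 4951, GRCm38) stood at 254, 268 and 409 CPM without nanoceria and at 93.4 and 92.7 CPM in the larger libraries with it, with 5 counts in the smallest. The 2 groups did not overlap, and the 2 treated libraries were nearly equal. The log2 difference was −1.89 ± 0.64 (SE, edgeR adjusted p = 1), or −1.71 ± 0.67 without the smallest library. mt-Nd5 (11742 to 13565) stood at 157, 150.5 and 314 CPM without and at 69.9 and 51.3 CPM with nanoceria, with 3 counts in the smallest library, a log2 difference of −1.93 ± 0.65 (SE), or −1.76 ± 0.68. mt-Nd4 was at 129, 117 and 202 CPM without and 48.6 and 31.5 CPM with nanoceria. For mt-Nd1, the most abundant of them, the 369.6, 266 and 463 CPM without nanoceria also lay above the 140.1 and 186 CPM with it, at a smaller difference of −1.39 ± 0.92 (SE), or −1.13 ± 1.02. mt-Nd6, the only one of these subunits encoded on the other strand, was at 127, 89.4 and 233 CPM without and at 46.9 and 28.3 CPM with nanoceria. The library kit did not mark strand, so counts of mt-Nd6 cannot be told apart from reads of the opposite strand over it.

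The subunits of complexes III, IV and V mostly gave the same order of the groups. mt-Cytb, of complex III, was at 117, 103 and 161 CPM without and 45.3 and 50.2 CPM with nanoceria. mt-Co1, the catalytic core of cytochrome oxidase, was at 256, 305 and 513 CPM without and 136 and 132 CPM with it, and held 9 counts in the smallest library, its highest count of the 13. mt-Atp6, of the ATP synthase, was far lower in level, at 6.40, 6.40 and 22.4 CPM without and 1.81 and 2.85 CPM with nanoceria (−2.38 ± 0.80, or −2.31 ± 0.83, and −1.53 without replicate 3 without nanoceria). mt-Co3 overlapped, at 10.1, 8.27 and 18 CPM without and 3.14 and 9.97 CPM with nanoceria. Levels of mt-Atp6, mt-Co2 and mt-Co3 are uncertain, since nuclear copies match nearly the whole length of each with 100% identity and hold more counts than the genes themselves (361 against 353 for mt-Atp6, 319 against 275 for mt-Co2 and 643 against 468 for mt-Co3, over the 6 libraries). With the counts of such copies added, mt-Atp6 was at 13.9, 14.7 and 39.6 CPM without and 3.93 and 5.06 CPM with nanoceria, and mt-Co3 still overlapped. For mt-Nd2 the copies held 182 counts against 11398, and for mt-Nd5 32 against 7350.

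As a share, the genes of the mitochondrial genome made up 0.268%, 0.211% and 0.453% of the counts outside the 6 dominant genes described below in the libraries without nanoceria. They were 0.109%, 0.107% and 0.182% with it. In bulk RNA, fewer cells of a type and less RNA per cell cannot be told apart. The 33 counts in the smallest library leave a Wilson 95% interval of 0.129 to 0.255%, which spans the 0.211% of replicate 2 without nanoceria and covers counting error only. The means were 0.133% ± 0.0425 (SD, n = 3) with and 0.311% ± 0.126 (SD, n = 3) without nanoceria, a difference of −0.178 percentage points. The groups did not overlap, which gives an exact 2-sided permutation p of 0.1, the smallest that 3 against 3 allows, and 0.4 after Benjamini-Hochberg adjustment over 4 tests of shares. Without the smallest library the difference was −0.203 points. The groups still did not overlap, and the exact permutation p was 0.2, the smallest this 2-sided test gives for 2 against 3. Replicate 3 without nanoceria, with 0.453%, carries a large part of the difference: without that library it was −0.107 points (exact permutation p = 0.2, again the smallest possible). The share ranged from 0.434 to 0.787% without and from 0.364 to 0.507% with nanoceria in space without gravity, and from 0.950 to 1.44% and from 0.174 to 1.45% on land.

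Respiratory chain subunits encoded in the nucleus did not share this pattern. Of 26 tested, 14 were higher and 12 lower, with a median of 0.03, or 0.19 without the smallest library, and none had an unadjusted p under 0.05 in either fit. Both larger libraries with nanoceria lay below all 3 without it in 0 of 26 and above in 5 of 26, where 9.73% of all genes lay above. Among those 5 were Cox7a2 (24.0, 24.5 and 25.3 CPM without, 35.7 and 47.3 CPM with nanoceria) and Uqcrc1 (12.5, 10.2 and 13.2 CPM without, 15.7 and 26.7 CPM with it). The difference between both lists was not tested.

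**Figure D2:**
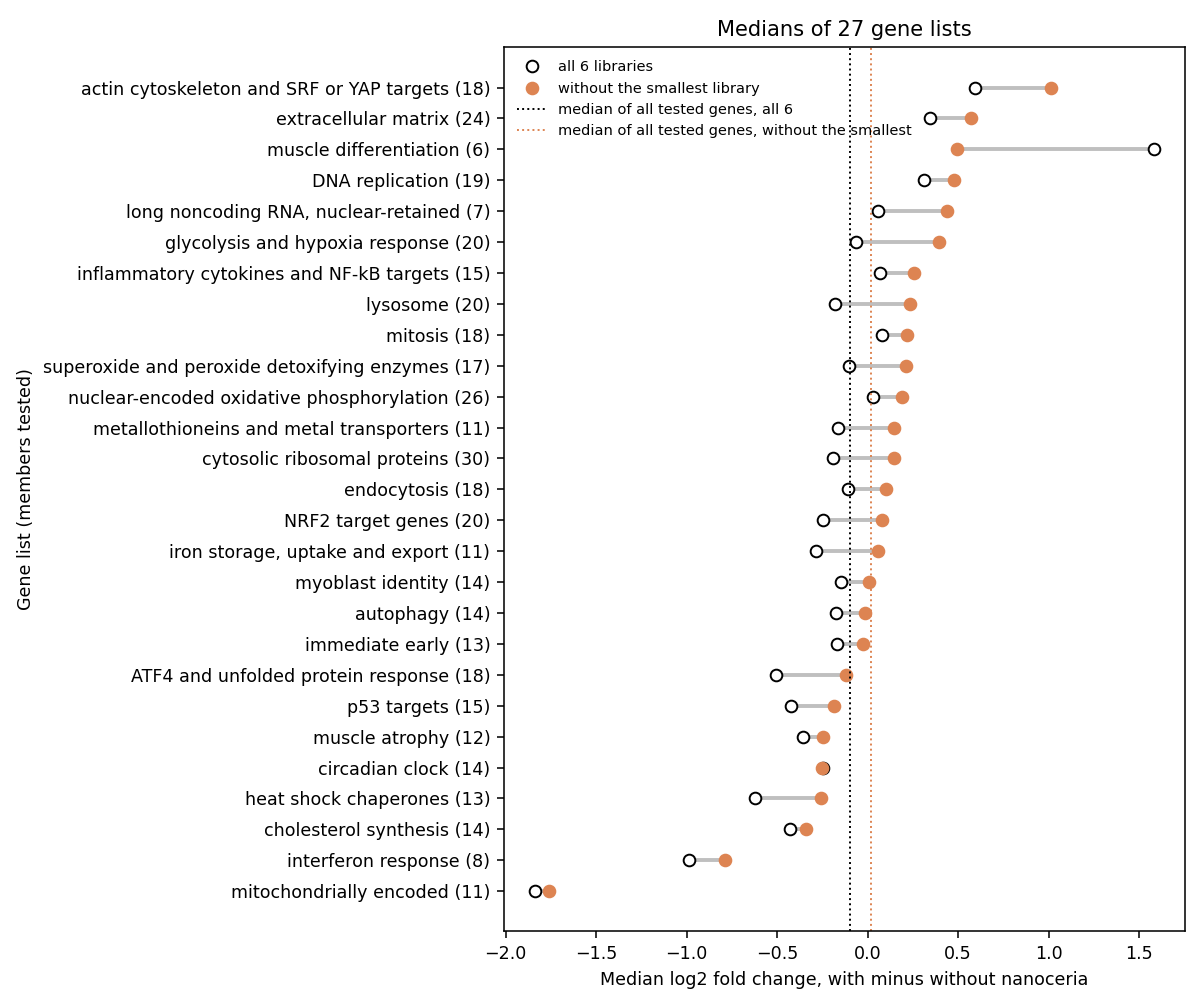
Median log2 difference, with minus without nanoceria, of 27 gene lists, with the number of members tested in brackets, from the fit with all libraries (open) and from the fit without the smallest library (filled), and the medians of all tested genes as dotted lines. The mitochondrially encoded list lies lowest in both fits (−1.84 and −1.76), and muscle differentiation moves most, from 1.58 to 0.49.

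The antioxidant and metal-handling genes held no gene past the adjusted threshold in the edgeR fit or in DESeq2. With edgeR and no filter on low counts, Osgin1 of the NRF2 list passed (adjusted p = 0.00307, and 0.00598 without the smallest library). Of 20 NRF2 targets tested, 8 were higher and 12 lower, with a median of −0.25, or 0.08 without the smallest library. Hmox1, which breaks down heme, stood at 227, 234 and 257 CPM without and at 271 and 189 CPM with nanoceria, with 4 counts in the smallest library. The treated libraries lay on both sides of the untreated ones, and the log2 difference was −0.45 ± 0.64 (SE), or −0.04 ± 0.64 without the smallest library. Nqo1, a quinone reductase, spanned 29.7 to 81.6 CPM without nanoceria and was at 149 and 28.0 CPM with it. Txnrd1 and Slc7a11, which sustain thioredoxin and glutathione, had 191 and 204 CPM in replicate 1 with nanoceria and their lowest levels in replicate 2 (67.7 and 47.5 CPM), against 96.7 to 239 and 93.7 to 158 CPM without. In 12 of the 20 NRF2 targets replicate 2 with nanoceria was the lowest of the 5 larger libraries, so the treated replicates differed among themselves. The share of all genes lowest in that library was not computed. Both larger treated libraries lay above all untreated ones for 1 of the 20 and below for 1, where 9.73% and 10.7% of all genes did. The lower one was Osgin1, a stress-responsive NRF2 target described further below.

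Of 17 enzymes that detoxify superoxide and peroxide, 8 were higher and 9 lower (median −0.11, or 0.21 without the smallest library). Sod1, Sod2, Cat and Gpx4, the superoxide dismutases, catalase and the lipid peroxide reductase, had log2 differences of −0.50 ± 0.75, −0.11 ± 0.72, 0.32 ± 0.55 and 0.29 ± 0.51 (SE). Without the smallest library they were −0.01 ± 0.70, 0.28 ± 0.65, 0.54 ± 0.55 and 0.57 ± 0.51. Prdx5, a peroxiredoxin, was at 9.34, 7.85 and 10.6 CPM without and 16.5 and 25.9 CPM with nanoceria (1.24 ± 0.49 without the smallest library, edgeR adjusted p = 1). Among 11 metallothioneins and metal transporters 5 were higher and 6 lower, with a median of −0.16. Without the smallest library 7 were higher and 4 lower, with a median of 0.15. Mt1 overlapped, at 53.2, 62.0 and 113 CPM without and 63.7 and 101 CPM with nanoceria. Mt2 overlapped too (−0.16 ± 0.64, or −0.22 ± 0.69). Slc31a1, the copper importer, was the only one of that list below all untreated libraries, at 23.3, 24.8 and 44.5 CPM without and 9.67 and 12.3 CPM with nanoceria (−1.65 ± 0.72, or −1.46 ± 0.74, edgeR adjusted p = 1). Iron genes had a median of −0.29 over 11 tested, or 0.06 without the smallest library. The ferritin chains Fth1 and Ftl1, which store iron, and the transferrin receptor Tfrc had differences of −0.35 ± 0.64, −0.25 ± 0.61 and −0.29 ± 1.08 (SE), and all 3 were above 0 without the smallest library (0.12, 0.19 and 0.24). Ftl1, Gpx4 and Sod1 have near-identical copies elsewhere in the genome that also have counts, so their levels are uncertain.

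The genes of particle uptake and breakdown gave medians between −0.18 and 0.24 in both fits. Of 18 endocytosis genes, 7 were higher and 11 lower (median −0.11, or 0.10 without the smallest library, where 10 were higher and 8 lower), of 20 lysosomal genes 6 were higher and 14 lower (−0.18, or 0.24 without the smallest library), and of 14 autophagy genes 3 were higher and 11 lower (−0.17, or −0.01). Ctsb, a lysosomal protease, was at 81.6, 57.3 and 147 CPM without and 130 and 54.3 CPM with nanoceria. Cav1, the main protein of caveolae, was at 367, 92.2 and 195 CPM without and 79.0 and 65.7 CPM with it (−1.93 ± 0.80, or −1.56 ± 0.84, edgeR adjusted p = 1), and the untreated libraries were widely spread. Cavin1, of the same endocytosis list, went the other way (0.34 ± 0.90, or 0.90 ± 0.87). It was at 6855, 8007 and 6118 CPM without and 6680 and 18386 CPM with nanoceria.

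The genes with the smallest p-values in each direction were taken by a rule that required both larger libraries with nanoceria to lie beyond all 3 without it, so their separation follows from the choice and is only described. The 10 lower genes were Clock, G2e3, Osgin1, mt-Nd5, mt-Nd2, mt-Atp6, Nr1d2, Zranb2, Parp6 and Snx6, with unadjusted p from 0.00123 to 0.0105. The 10 higher ones were Ubap1, Slc16a3, Ap1g1, Cabin1, Sumo2, Hcfc1r1, Bcar1, Csrp2, Sobp and Ltbp3, with unadjusted p from 0.00671 to 0.0547. None had an adjusted p under 0.982.

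**Figure D3:**
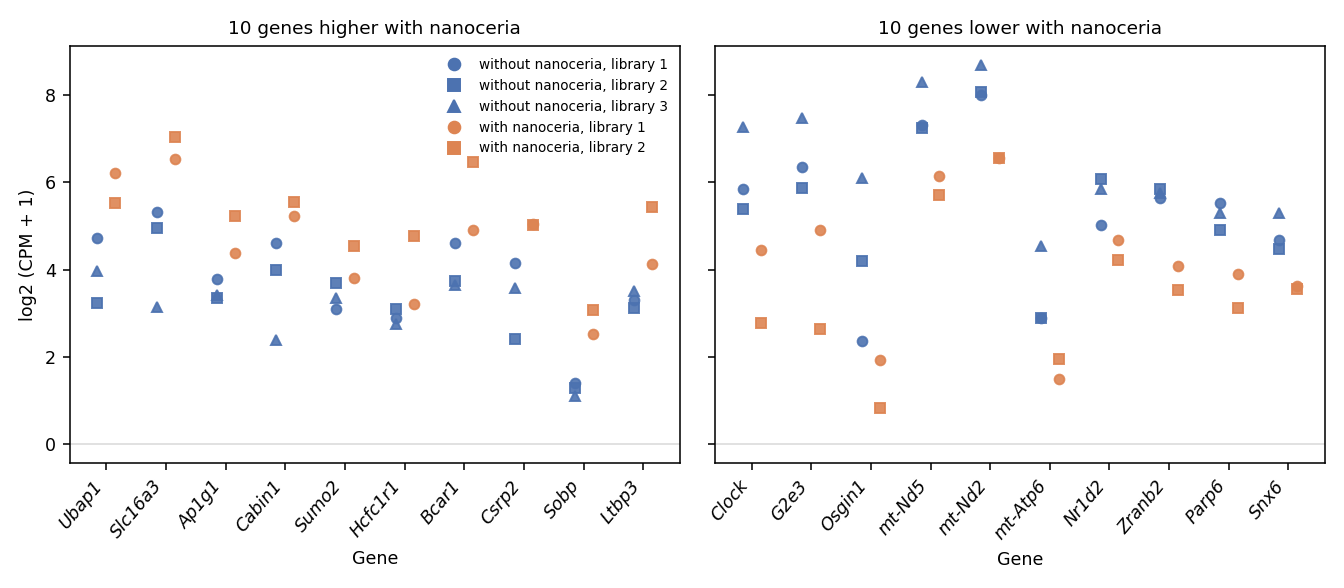
Levels of the 10 higher and 10 lower genes with the smallest p-values as log2 (CPM + 1), for the 3 libraries without nanoceria (blue) and the 2 larger libraries with it (orange). By the rule of choice both orange points lie above all blue points on the left and below them on the right. Replicate 2 with nanoceria is the lowest point for 9 of the 10 lower genes, all but mt-Atp6, such as Clock (5.85 CPM) and G2e3 (5.22 CPM).

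Clock and Nr1d2 belong to the circadian feedback loop. Clock (chromosome 5, 76209868 to 76304792, GRCm38), the partner of Arntl in driving rhythmic transcription, stood at 56.0, 40.9 and 152 CPM without and at 20.9 and 5.85 CPM with nanoceria, with 1 count in the smallest library. Both larger treated libraries were lower than every untreated one, and both groups were widely spread. The log2 difference was −2.64 ± 0.69 (SE) and was −2.64 ± 0.73 without the smallest library. Without replicate 3 without nanoceria it was −1.88. Nr1d2 (chromosome 14, 18204054 to 18239127), a nuclear receptor that represses Arntl, was at 31.5, 66.1 and 56.1 CPM without and 24.8 and 17.6 CPM with nanoceria (−1.38 ± 0.48, or −1.25 ± 0.48). Arntl itself, at low levels, was at 0.896, 1.19 and 3.11 CPM without and 6.76 and 7.91 CPM with nanoceria, above all untreated libraries (2.20 ± 0.99, or 2.13 ± 1.02, edgeR adjusted p = 1). Tef, an output gene of the loop, was at 31.6, 25.0 and 13.6 CPM without and 41.9 and 64.7 CPM with nanoceria. Per2 was at 1.02, 2.90 and 0.491 CPM without and 0.314 and 0.316 CPM with it. Over the whole list of 14 tested clock genes 5 were higher and 9 lower, or 4 and 10 without the smallest library, with a median of −0.25 in both fits. At an unadjusted p below 0.05, 1 of 14 was higher and 2 of 14 were lower, where 2.26% and 2.21% of all genes were. Both larger treated libraries lay below all untreated ones for 4 of 14 and above for 2 of 14, where 10.7% and 9.73% of all genes did.

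G2e3, a ubiquitin ligase of the cell cycle and DNA damage response, showed the same order of libraries as Clock, at 80.6, 57.4 and 175 CPM without and 28.8 and 5.22 CPM with nanoceria (−2.67 ± 0.76, or −2.62 ± 0.84 without the smallest library). Zranb2, a splicing factor, was the lower gene with the least spread among untreated libraries, at 48.6, 56.1 and 52.6 CPM, against 16 and 10.6 CPM with nanoceria (−2.00 ± 0.69, or −1.96 ± 0.75). Parp6, an ADP-ribosyltransferase, was at 45.2, 29 and 37.9 CPM without and 13.9 and 7.75 CPM with it (−1.77 ± 0.61, or −1.76 ± 0.66). Snx6, a sorting nexin of endosomes, was at 24.4, 21.2 and 38.1 CPM without and 11.3 and 10.8 CPM with it (−1.50 ± 0.53, or −1.31 ± 0.50).

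Among the higher genes, Ubap1 and Ap1g1 belong to endosomal and Golgi traffic. Ubap1 (chromosome 4, 41348996 to 41390525), a subunit of the ESCRT-I complex that sorts ubiquitinated cargo, was at 25.4, 8.44 and 14.7 CPM without and 73.2 and 45.1 CPM with nanoceria, with 5 counts in the smallest library. This is 1.87 ± 0.61 on the log2 scale, or 1.90 ± 0.65 without the smallest library. Ap1g1, an adaptor of clathrin coats, was at 12.7, 9.13 and 9.65 CPM without and 19.9 and 36.4 CPM with nanoceria, and its difference moved from 2.22 ± 0.95 to 1.47 ± 0.91 without the 10 counts of the smallest library. Slc16a3 (chromosome 11, 120948480 to 120960868), which exports lactate from glycolytic cells, was at 39.2, 29.7 and 7.85 CPM without and 90.8 and 129 CPM with nanoceria. Its difference was 1.71 ± 0.71, or 2.17 ± 0.68 without the smallest library (edgeR adjusted p = 1). Bcar1, a scaffold of focal adhesions, was at 23.2, 12.3 and 11.6 CPM without and 28.8 and 87.5 CPM with nanoceria. Ltbp3, which holds latent TGF-beta in the matrix, was at 8.89, 7.76 and 10.5 CPM without and 16.3 and 42.1 CPM with it. In both, replicate 2 with nanoceria lay well above replicate 1. Their differences were 1.51 ± 0.71 and 1.41 ± 0.69, or 1.95 ± 0.61 and 1.75 ± 0.63 without the smallest library, and 0.38 and 0.48 without replicate 2 with nanoceria. Csrp2, a LIM protein of the cytoskeleton, was at 32.0 and 31.3 CPM with nanoceria against 16.6, 4.35 and 11 CPM without (1.39 ± 0.67, or 1.61 ± 0.68). Cabin1, an inhibitor of calcineurin, was at 23.4, 14.9 and 4.25 CPM without and 36.2 and 45.4 CPM with nanoceria (1.38 ± 0.61, or 1.58 ± 0.63). Sumo2, a small protein modifier, was at 7.55, 11.9 and 9.16 CPM without and 13.0 and 22.1 CPM with it, and its difference of 1.54 ± 0.68 was 0.93 ± 0.60 without the 6 counts of the smallest library. Sobp was at 1.66, 1.45 and 1.14 CPM without and 4.71 and 7.44 CPM with nanoceria, and its 2.90 ± 1.41 was 2.11 ± 1.28 without the 4 counts of that library. Hcfc1r1 was at 6.46, 7.59 and 5.72 CPM without and 8.33 and 26.4 CPM with nanoceria. Its 1.32 ± 0.60, or 1.45 ± 0.61, rests on replicate 2 with nanoceria, without which it was 0.43. Hcfc1r1 and Ltbp3 share exon bases with genes on the other strand, so their counts are uncertain.

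Slc16a3 is also 1 of 20 genes of glycolysis and the response to low oxygen. In that list both larger libraries with nanoceria lay above all 3 without it for 7 genes and below for 0, where 9.73% and 10.7% of all genes did. The 7 were Slc16a3, Pfkp, Pgk1, Eno1, Ldha, Aldoa and Pkm, which catalyse steps of glycolysis or, for Slc16a3, export its product. Ldha was at 407, 469 and 326 CPM without and 500.4 and 665 CPM with nanoceria. Eno1 was at 359.8, 412 and 398 CPM without and 509 and 607 CPM with it. These shifts were small, and Slc16a3 alone had an unadjusted p under 0.05 in either fit. The list's median was −0.07 with all libraries and 0.39 without the smallest, and its sign changed under 8 of 17 alternatives.

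The treated replicates differed in genes of the actin cytoskeleton and targets of SRF or YAP. Of 18 tested, 16 were highest in replicate 2 with nanoceria among the 5 larger libraries. In replicate 1 with nanoceria 13 lay within the range of the untreated ones. The share of all tested genes that were highest in replicate 2 was not computed. That library was also highest for 21 of 30 cytosolic ribosomal protein genes and 14 of 20 glycolysis genes. It was highest for 1 of 20 NRF2 targets and 0 of 13 heat shock chaperones. Flna, an actin crosslinker, was at 135, 93.5 and 74.1 CPM without and at 119.8 and 280.5 CPM with nanoceria. Ccn2, a matricellular YAP target, was at 9.21, 2.30 and 2.29 CPM without and 3.85 and 42.9 CPM with it. The list's median of 0.60, or 1.01 without the smallest library, was the highest among lists of more than 6 tested genes, and it was −0.60 without replicate 2 with nanoceria, so 1 library decides it. The NF-kB related genes Cxcl1 and Nfkb2 followed the same order, with 6.21 and 32.7 CPM and 8.33 and 47.0 CPM in replicates 1 and 2 with nanoceria against 2.13 to 6.97 and 3.75 to 10.0 CPM without. The list of inflammatory and NF-kB genes had 8 of 15 higher and 7 lower, with differences from −2.59 to 3.37. Extracellular matrix genes had 17 of 24 higher (median 0.35, or 0.57 without the smallest library), and 14 of 24 were highest in replicate 2 with nanoceria. The share of the 6 dominant genes differed between these replicates as well. Lars2, Gm23935, Gm15564, Gm24270, Gm24187 and Gm25911 took 32.1% of counts in replicate 1, 54.4% in replicate 2 and 23.8% in replicate 3 with nanoceria, against 24.5%, 33.9% and 34.6% without. The groups overlapped (36.8% ± 15.8, SD, n = 3, against 31.0% ± 5.60, SD, n = 3, exact permutation p = 0.9, or 0.6 without the smallest library). With these genes removed before scaling, and with scaling by the counts outside them, edgeR called 0 genes. In these fits the median of the mitochondrially encoded list was −1.84 and −1.55, and that of the actin list 0.59 and 0.77. The part of the dominant share in the other results was not otherwise tested.

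Of 14 tested myoblast identity genes 6 were higher and 8 lower, or 7 and 7 without the smallest library. Myf5 and Met were among the lower. Myf5 (chromosome 10, 107482908 to 107486134), a factor that commits cells to muscle, was at 124, 128 and 52.3 CPM without and at 34.3 and 33.9 CPM with nanoceria, with 1 count in the smallest library. The groups did not overlap, and the treated replicates were nearly equal (−1.77 ± 0.64, or −1.53 ± 0.68, edgeR adjusted p = 1). Met, the receptor of hepatocyte growth factor on muscle precursors, was at 31.4, 18.5 and 51.5 CPM without and 10.9 and 2.06 CPM with it (−2.48 ± 0.92, or −2.37 ± 0.99, edgeR adjusted p = 1). These were the 2 of 14 tested genes of the list that were lower at an unadjusted p below 0.05, where 2.21% of all genes were, and 3 of 14 were without the smallest library, where 2.01% were. The median of the list was −0.15, or 0.01 without that library. Its lowest difference, −2.59, or −3.01 without that library, was in another gene. Des was at 76.7, 97.4 and 48.4 CPM without and 128 and 175 CPM with nanoceria (0.71 ± 0.67, or 1.08 ± 0.66). Of 22 muscle differentiation genes 6 were tested, and their median was 1.58, and 0.49 without the smallest library, whose 15 counts of Ttn gave that gene a difference of 8.18 ± 2.53 that became −0.81 ± 2.01 without them. Acta1, skeletal actin, was low in both groups but did not overlap, at 2.88, 1.02 and 0.491 CPM without and 4.87 and 10.1 CPM with nanoceria.

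Genes of growth and damage were read through lists of the cell cycle, p53 targets and stress responses. Mki67, a marker of dividing cells, was at 26.2, 2.22 and 1.80 CPM without and 1.41 and 4.59 CPM with nanoceria, so 1 untreated library set its difference of −1.84 ± 1.05 (or −1.69 ± 1.10), which was 0.47 without replicate 1 without nanoceria. Mitosis genes had a median of 0.08, or 0.22, over 18 tested. Of 19 DNA replication genes 14 were higher, or 15 without the smallest library, with medians of 0.31 and 0.48. At an unadjusted p below 0.05, 2 of 19 were higher, where 2.26% of all genes were, or 1 of 19 without the smallest library. Replicate 2 with nanoceria was highest for 14 of 19, a share not computed over all genes. Among them was Mcm7, a subunit of the replicative helicase, at 9.85, 9.98 and 6.05 CPM without and 13.1 and 39.7 CPM with nanoceria. Cdkn1a, the p53-induced cell cycle inhibitor, was at 168 to 204 CPM without and 269 and 249 CPM in the larger libraries with it (0.03 ± 0.56, or 0.47 ± 0.49), and 15 p53 targets had a median of −0.42, or −0.19 without the smallest library. Stress lists were not higher: heat shock chaperones had a median of −0.62 (−0.26 without the smallest library) and ATF4 and unfolded protein response genes −0.51 (−0.12). The 8 tested interferon genes had a median of −0.99 (−0.79), with 6 of 8 lower and none at unadjusted p under 0.05. Cytosolic ribosomal proteins had a median of −0.19 (0.15). Cholesterol synthesis genes had a median of −0.43 (−0.34) over 14 tested. Inflammatory genes had 0.07 (0.26), immediate early genes −0.17 (−0.03) and nuclear-retained noncoding RNAs 0.06 (0.44). Muscle atrophy genes had −0.35 (−0.24), with the F-box proteins Fbxo21 and Fbxo30 in opposite directions (1.50 ± 0.67 and −1.51 ± 0.63, or 1.72 ± 0.63 and −1.61 ± 0.66).

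The effect in space with gravity was then set against the effect of nanoceria in the other regimes, which have their own untreated libraries. No gene passed in either test of the difference with edgeR on the filtered genes. With no filter on low counts edgeR called 166 of 25194 genes against space without gravity and 268 against land. Against space without gravity 493 of 11558 genes (4.27%) had an unadjusted p under 0.05, and against land 783 (6.77%). DESeq2 called 15 and 12 genes, and 20 and 5 without the smallest library. Land cultures were grown later, in a repeat of the flight timeline, so the regime and the run cannot be told apart in the second test.

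The genes described next are among those with the smallest p in these tests, and each had opposite differences in the regimes compared. Osgin1 (chromosome 8, 119434124 to 119446256), which is induced by oxidative stress and slows growth, was at 4.16, 17.4 and 67.5 CPM without and 2.83 and 0.791 CPM with nanoceria in space with gravity, with 0 counts in the smallest library. In space without gravity it was at 1.59, 0.333 and 1.41 CPM without and 19.9, 71.5 and 3.02 CPM with nanoceria. The groups did not overlap in either regime, in opposite order, with log2 differences of −4.02 with gravity and 4.80 without. The first rests in part on replicate 3 without nanoceria, without which it was −2.57, and it was −2.53 with voom. The difference of the effects was −8.82 ± 1.85 (SE, edgeR adjusted p = 0.357), −8.82 without the smallest library (adjusted p = 0.641), and −7.37 without replicate 3 without nanoceria (adjusted p = 0.592). With voom it was −6.41 (adjusted p = 1). It passed with DESeq2 with all libraries (adjusted p = 0.000349) and without the smallest (adjusted p = 0.00111), and with edgeR and no filter (adjusted p = 1.01e-08). Tmem126b, an assembly factor of complex I, was at 38.8, 20.7 and 83.2 CPM without and 20.3 and 16.6 CPM with nanoceria in space with gravity. In space without gravity it was at 3.38, 4.66 and 5.31 CPM without and 11, 16.2 and 51.1 CPM with it (difference −3.85 ± 0.93, SE, edgeR adjusted p = 0.597). With DESeq2 it did not pass with all libraries (adjusted p = 0.0921) and passed without the smallest (adjusted p = 0.0386). Its difference with gravity alone was −1.30 ± 0.67, or −1.35 ± 0.74, and was −0.65 without replicate 3 without nanoceria. On land both genes were also lower with nanoceria, by −2.22 ± 1.12 for Osgin1 and −1.25 ± 0.66 for Tmem126b (SE). The effect with gravity differed from that on land by −1.80 ± 1.62 for Osgin1 and −0.05 ± 1.00 for Tmem126b (SE).

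Against land, Myf5 was lower with nanoceria in space with gravity, as given above, and higher on land, at 27.2, 37.3 and 31.6 CPM without and 159, 162 and 84.0 CPM with it. Its difference of −3.85 ± 0.90 (SE, edgeR adjusted p = 0.681) passed with DESeq2 (adjusted p = 0.036, and 0.0412 without the smallest library) and with edgeR and no filter (adjusted p = 0.0305).

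**Figure D4:**
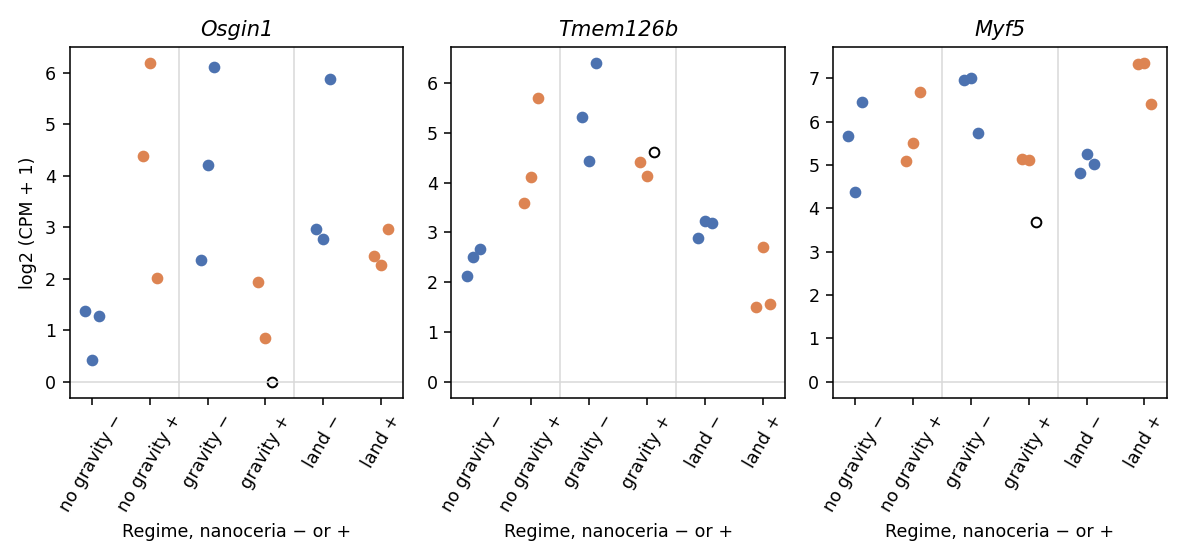
Levels of 3 of the genes with the smallest p-values in the tests between regimes as log2 (CPM + 1), 1 point per library, in space without gravity ("no gravity"), space with gravity ("gravity") and on land, without (−, blue) and with (+, orange) nanoceria, the open point being the smallest library. Osgin1 and Tmem126b are higher with nanoceria in all 3 libraries without gravity and lower in both larger libraries with gravity, and Myf5 is higher with nanoceria on land (84.0 to 162 CPM) and lower with gravity (34.3 and 33.9 CPM).

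The mitochondrially encoded list had a median of −1.84 with gravity, −0.46 in space without gravity (10 of 11 lower) and 0.08 on land (5 of 11 lower), with 0 of 11 lower at unadjusted p under 0.05 in either of the latter. For single genes the difference of the effects had an unadjusted p under 0.05 for 0 of 11 against space without gravity, where 4.27% of all genes had, and for 4 of 11 against land, where 6.77% had. None passed adjustment. mt-Nd2, for example, differed by −1.43 from its effect in space without gravity and by −1.48 from that on land.

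The smallest library also differed in which genes it held. Outside the 6 dominant genes it had 18168 counts in 4874 genes, where reading the other 5 at that depth would give 3696 to 4025 genes. Its 5 most counted genes outside dominant and mitochondrial genes were Gm42418 with 808 counts, Canx with 397, Cavin1 with 126, Malat1 with 115 and Actb with 114. Gm42418 (chromosome 17, 39846958 to 39848788) took 3.39% of its counts, against 0.101 to 0.227% in the other 5, and Canx, a chaperone of the endoplasmic reticulum, was among the most abundant genes of all 6. Their differences were 1.82 ± 0.82, −0.79 ± 0.91, 0.34 ± 0.90, −1.02 ± 1.08 and −0.27 ± 0.81. Without this library they were 0.63 ± 0.75, −0.30 ± 0.93, 0.90 ± 0.87, −0.56 ± 1.15 and 0.22 ± 0.80. Genes expected at under 0.2 counts from the other 5 libraries held 22.2% of its counts, where 2.96% were expected. There were 65 genes with at least 10 counts and at least 20 times the expected count, the expected count being taken from 3 pooled counts where there were fewer. They held 977 counts, 5.38% of the library, against 0.069% in the other 5. Among them were the transcription factors Foxp2 (35 counts, against 3 in the other 5 libraries together), Mef2c (29 against 15) and Bcl11a (19 against 0), and the neuronal RNA-binding proteins Nova1 (26 against 3) and Elavl2 (18 against 6). Over the whole series, the highest count in any of the other 17 libraries was 2 for Foxp2, 14 for Mef2c and 1 for Bcl11a. It was 42 for Nova1 and 12 for Elavl2, in libraries of at least 2986628 counts. The 65 genes were chosen by their counts, so the numbers describe this library and test nothing.

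**Figure D5:**
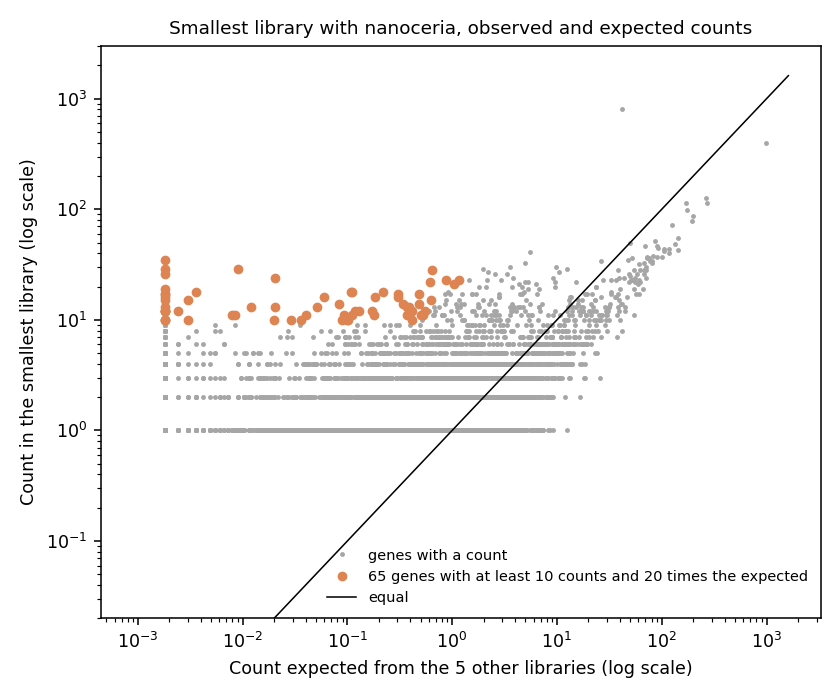
Counts per gene in replicate 3 with nanoceria against the count expected at its depth from the other 5 libraries, outside the dominant genes, both on log scales, with at least 3 pooled counts assumed. Most abundant genes lie at or below the line of equality, and 65 genes (orange) lie at 10 counts or more and at least 20 times above it.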

How the data were processed

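RNA of C2C12 myoblasts was measured by polyadenylated RNA sequencing in 18 libraries of 6 groups, 3 each, and the 18 small RNA samples were not analysed here. The deposited values are raw counts per gene, which the authors made with CASAVA, Trimmomatic 0.36.29, STAR and featureCounts (Subread) on GRCm38.p6, per the submitters' processing notes. The library kit does not mark strand, and the strand setting of the counting is not given in the sources used here.

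Genes were tested with edgeR 4.0.16 (TMM, filterByExpr, quasi-likelihood test, R 4.3.3), fitted over all 18 libraries, with Benjamini-Hochberg adjustment and a threshold of 0.05. The effect with gravity was compared with the other regimes by interaction contrasts. Shares were compared with exact 2-sided permutation tests (scipy 1.17.1). Near-identical copies were sought with blastn 2.17.0 at 95% identity over at least 100 bases. The procedure was tested on counts simulated at a spread below that of these data and at their own. Recovery of changed genes was required only at the lower spread. Recovery at the spread of these data is not given here, so no statement about power is made. Libraries of the comparison held 23858 to 11378178 counts, so the smallest library resolves abundant genes only, and intervals cover counting error only.

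Named genes are, first, the 10 genes in each direction with the smallest p among those whose average log2 CPM reaches 4, whose symbol is not of the Gm or Rik kind, with the same sign without the smallest library, and both larger treated libraries beyond all untreated ones. Next come 18 chosen genes (antioxidant, iron, metal, muscle, cycle and lysosome), then the 2 genes with the smallest p and that average in each test between regimes, and the 5 most counted genes of the smallest library outside dominant and mitochondrial genes. Some results under these rules are not reported here. Other genes are members of the 27 lists named beside their results. The members and lists were chosen with earlier results of these data known. Fbf1, Zfp930, Nova1, Scpep1os and the genes of the smallest library were named after their values were seen.

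Alternatives were DESeq2 1.42.0 size factors and test, limma 3.58.1 voom with quality weights, no filter, a mean of at least 50 counts, only the 6 libraries, removal of dominant genes, and leaving out each library. The voom quality weight was 1.22 for the smallest library, and 0.795 and 0.497 for replicates 1 and 2 with nanoceria. These weights therefore did not discount the smallest library. Chosen after seeing the data were TMMwsp scaling, scaling outside the dominant genes, and DESeq2 and no filter without the smallest library.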

Additional observations from a re-analysis of the deposited data

Results flagged for a closer look

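Among genes left out of the tests for low counts, 22 had at least 10 counts in the smallest library, replicate 3 with nanoceria in space with gravity. They held 343 counts there, and 8 of them had 0 counts in the other 5 libraries of the comparison. The highest count of any of them in those 5 libraries was 73. Foxp2, with 35 counts, and Fign, with 29, were the most counted of those at or near 0 elsewhere in the comparison. The result was singled out because these counts lie in genes outside the tests. It was seen in 1 library, and its cause was not tested.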

How the results depend on the processing

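No paired analysis was possible because numbers were given by accession order, and nothing in the labels ties a library of 1 class to a library of another. For nanoceria in space with gravity the count of genes passing moved from 0 to 253 of 25194 with edgeR and no filter. It was 95 of 24995 with no filter and no smallest library. It was 28 with DESeq2, 1 with only the 6 libraries fitted, and 0 in the other alternatives. For the difference from space without gravity it moved to 166 with no filter, 169 with no filter and no smallest library, 15 with DESeq2 and 20 with DESeq2 without the smallest library. For the difference from land it moved to 268, 268, 12 and 5 in that order. The difference in the dominant genes' share ranged from −3.02 to 12.2 points when 1 library was left out, the negative value being without replicate 2 with nanoceria. The cause of these shifts was not tested.

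Of 848 recomputed values of named genes, 48 changed sign, in 16 genes. Leaving out 1 library gave log2 differences from −0.73 to 0.74 for Nqo1, −1.75 to 0.11 for Slc7a11, −0.97 to 0.087 for Sod1, −0.50 to 0.28 for Sod2, −0.55 to 0.58 for Cat and −0.30 to 0.57 for Gpx4. The ranges were −0.93 to 0.15 for Mt1, −0.48 to 0.18 for Mt2, −1.01 to 0.12 for Fth1, −0.65 to 0.19 for Ftl1 and −1.08 to 0.24 for Tfrc. They were −0.31 to 0.47 for Cdkn1a, −2.89 to 0.47 for Mki67, −1.18 to 0.070 for Ctsb, −0.78 to 0.90 for Cavin1 and −1.20 to 0.22 for Actb. Without the smallest library, DESeq2 and edgeR with no filter gave 0.11 and 0.14 for Slc7a11, 0.23 and 0.22 for Sod2, 0.10 and 0.11 for Mt1, 0.099 and 0.11 for Fth1, 0.15 and 0.16 for Ftl1, 0.21 and 0.20 for Tfrc, and 0.16 and 0.15 for Actb. Sod2 was 0.044 with DESeq2 size factors, 0.043 with a mean of at least 50 counts, 0.055 with DESeq2 and 0.071 with scaling outside the dominant genes. Mt2 was 0.025 and 0.054 in the second and last of these. Cdkn1a was −0.00738 with no filter and −0.43 with voom, and Cavin1 was −1.18 with voom. The medians of 5 lists kept their sign under every alternative run: mitochondrially encoded, p53 targets, ATF4 and unfolded protein response, cholesterol synthesis and muscle atrophy. Muscle differentiation has no value with a mean of at least 50 counts. Depth limits the smallest library, where 3 counts are 35.5 CPM.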
